A study of Drosophila melanogaster with 2 samples.

Results

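The Enhancer of split bHLH repressors are 7 genes of 1 cluster on chromosome arm 3R of Drosophila melanogaster. They were taken by name from the authors' deposited table, where they are listed as HLHmgamma, HLHmbeta, HLHmdelta, HLHm3, HLHm5, HLHm7 and E(spl), the last of which is now called E(spl)m8-HLH. All 7 of the names were found among the 14284 genes of the count tables, and all 7 had enough counts to be measured, that is, counts summing to at least 20 over both libraries. Measured genes numbered 9142 in all.

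The study compared type II neuroblast lineages of the larval brain after RNAi against brat, a translational repressor and tumour suppressor, with lineages without that RNAi. The brat RNAi group was 1 library, from larvae carrying the VDRC brat RNAi line, and the control group was 1 library, from the cross without it. Both crosses shared UAS-dicer2, the drivers wor-Gal4 and asense-Gal4 as the labels spell them, UAS-CD8::GFP and tub-Gal80ts, a temperature-sensitive inhibitor of Gal4. Larvae were kept at 18 °C, moved to 29 °C by the third instar and dissected 24 h later, and the GFP-positive neuroblasts with their 24 h progeny were sorted for polyA RNA. How many animals went into a library is not given in the sources used here. The gene ase (asense) is active in type I neuroblasts and not in type II neuroblasts, so a driver of that kind would also label type I lineages, while the labels call the sorted cells type II. Whether type I lineages were in the sort is not given in the sources used here. The sort also takes the recent daughters of the neuroblasts, so each value averages over neuroblasts, intermediate progenitors and newborn neurons. In such a bulk sample fewer cells of a type and less RNA per cell cannot be told apart.

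Notch is a receptor that, once cut at the membrane by its activators, enters the nucleus with the DNA-binding protein Su(H) and switches on target genes. The bHLH genes of the Enhancer of split complex are its best known targets. They encode basic helix-loop-helix repressors that recruit the corepressor Groucho through a short C-terminal motif and turn off proneural genes such as those of the achaete-scute family. In larval neuroblasts, E(spl)mgamma-HLH acts beside Deadpan, a related repressor, to keep the cells in a stem cell state.

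The libraries held 15236504 gene counts for brat RNAi and 16566265 for the control. The targeted gene brat had 6312 counts in the brat RNAi library and 12210 in the control library, a log2 ratio of -0.69 after normalisation (95% counting interval -0.73 to -0.65). Counts of the neuroblast genes dpn, mira and wor and of the type II factors pnt and btd were between 1484 and 29722 in both libraries. The gene ase, which type II neuroblasts lack and their progenitors switch on, had 1236 counts in the brat RNAi library and 1790 in the control library. Intervals here reflect counting error alone. Since each group is 1 library, no difference has a replicate check, and no test or p-value was computed.

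Each of the 7 genes was lower for brat RNAi, by 28.2% for HLHmgamma and by as much as 57.0% for HLHmbeta. Their counts summed to 2314 in the brat RNAi library and 4630 in the control library. After division by the size factors the sum was 40.1% lower for brat RNAi, with a log2 ratio of -0.74 (-0.81 to -0.67). As a share of all gene counts the 7 genes made 152 counts per 1000000 in the brat RNAi library (145.7 to 158.2) and 279 per 1000000 in the control library (271.5 to 287.7). The members were named without use of these values, but with earlier results of these data known.

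Levels of the 7 genes were compared with each other per transcript length, as TPM, the share of all transcripts scaled to 1000000, and spanned a wide range. HLHmgamma, the member best known from neuroblasts, was the most abundant in both libraries, with 124 TPM for brat RNAi (116.2 to 131.7) and 173 TPM for the control (165.1 to 181.9). HLHmbeta, which is widely expressed in imaginal discs, had 59.4 TPM in the brat RNAi library (54.3 to 64.8) and 139 TPM in the control library (131.9 to 146.5). E(spl), the m8 gene, which inhibits formation of sensory organ precursors, had 74.8 TPM in the brat RNAi library (68.4 to 81.6) and 107 TPM in the control library (100.04 to 114.4). These 3 genes together made 88.7% of the family's summed TPM in the brat RNAi library and 87.2% in the control library.

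The other 4 members were scarcer. HLHm7, like m8 a gene of proneural clusters, had 19.6 TPM in the brat RNAi library (16.8 to 22.8) and 33.7 TPM in the control library (30.3 to 37.5). HLHm3 had 6.17 TPM in the brat RNAi library (4.82 to 7.78) and 13.4 TPM in the control library (11.6 to 15.5). HLHmdelta, used in the eye as a marker of the R4 photoreceptor, had 3.92 TPM in the brat RNAi library (2.73 to 5.45) and 7.42 TPM in the control library (5.88 to 9.25). HLHm5 was the lowest in both, at 3.22 TPM in the brat RNAi library (2.08 to 4.75) and 7.12 TPM in the control library (5.51 to 9.06). The highest and the lowest member were 38.5-fold apart in the brat RNAi library and 24.3-fold apart in the control library.

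The order of the members by level differed between libraries in a single place. Next after HLHmgamma came E(spl) and then HLHmbeta in the brat RNAi library, and HLHmbeta and then E(spl) in the control library. In neither library did the counting intervals of these 2 levels overlap. Intervals of HLHmdelta and HLHm5 overlapped in both libraries, and those of HLHm3 and HLHmdelta overlapped in the brat RNAi library, so the order among these is not resolved by the counts. The remaining neighbours in the order were separated by more than their counting intervals.

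**Figure D1:**
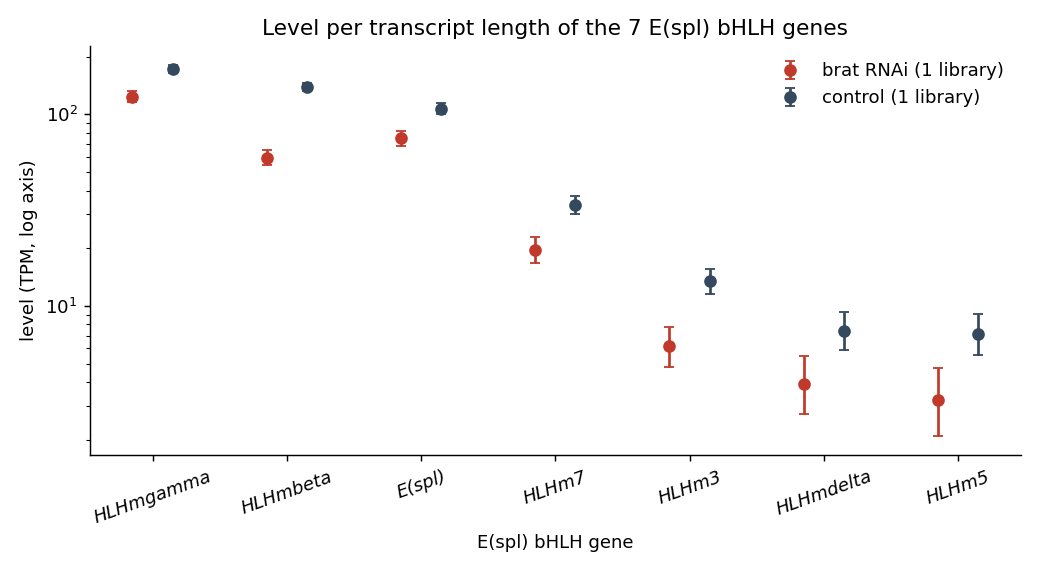
Level of each E(spl) bHLH gene in TPM on a log axis, with 95% exact Poisson counting intervals, in the brat RNAi library (left point of each pair) and the control library (right point). Every gene is lower in the brat RNAi library, and E(spl) lies above HLHmbeta in the brat RNAi library but below it in the control library.

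HLHmbeta was the member with the largest difference. Its counts were 512 in the brat RNAi library and 1429 in the control library, or 561 and 1305 normalised counts in the same order. This is a log2 ratio of -1.22 (-1.37 to -1.07), 2.33-fold higher in the control, and HLHmbeta was the only member whose whole counting interval lay beyond 2-fold. Its ratio was the 26th lowest among the 6757 genes whose normalised counts averaged at least 100. With the limit set at its own mean level after its value was seen, it had the lowest ratio of the 3122 genes at or above that level. These ranks are of ratios without correction. After the correction for length and level given below, at least brat (-1.138) and Hsromega (-1.085), both more abundant, lay below HLHmbeta (-1.084).

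HLHm5 and HLHm3 were the other 2 members past 2-fold. HLHm5 had 25 counts in the brat RNAi library and 66 in the control library, a log2 ratio of -1.14 with a wide interval (-1.87 to -0.46). HLHm3 had 71 counts in the brat RNAi library and 184 in the control library, a log2 ratio of -1.11 (-1.53 to -0.71). Both intervals include differences smaller than 2-fold, so the depth does not place either gene on one side of that threshold. The ratio of HLHm3 was the 31st lowest of the same 6757 genes, and HLHm5 was too scarce to enter that comparison.

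HLHmdelta, HLHm7, E(spl) and HLHmgamma were lower by less than 2-fold. HLHmdelta had 35 counts in the brat RNAi library and 79 in the control library, a log2 ratio of -0.91 (-1.53 to -0.32). HLHm7 had 170 counts in the brat RNAi library and 348 in the control library, a log2 ratio of -0.77 (-1.05 to -0.50). The next 2 genes, both abundant, differed least. E(spl) had 507 counts in the brat RNAi library and 865 in the control library, a log2 ratio of -0.51 (-0.67 to -0.35). HLHmgamma had 994 counts in the brat RNAi library and 1659 in the control library, a log2 ratio of -0.48 (-0.59 to -0.36).

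Of the 7 members, 3 were at least 2-fold lower, which among all measured genes was true of 4.48%. None was at least 2-fold higher, as were 1.15% of measured genes. All 7 had a counting interval wholly below 0, against 24.3% of measured genes, and 5 were at least 1.5-fold lower, against 8.32%. The median log2 ratio was -0.91 over the members and 0.00 over all measured genes. Over all genes 410 were at least 2-fold lower and 105 at least 2-fold higher, and with total count scaling these were 535 and 62. This background differed with level: 15.6% of measured genes under a mean normalised count of 100 were at least 2-fold lower but 0.548% of those at or above it. Above that level stood 5 members, of which 2 were at least 2-fold lower, and below it stood 2, of which 1 was.

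**Figure D2:**
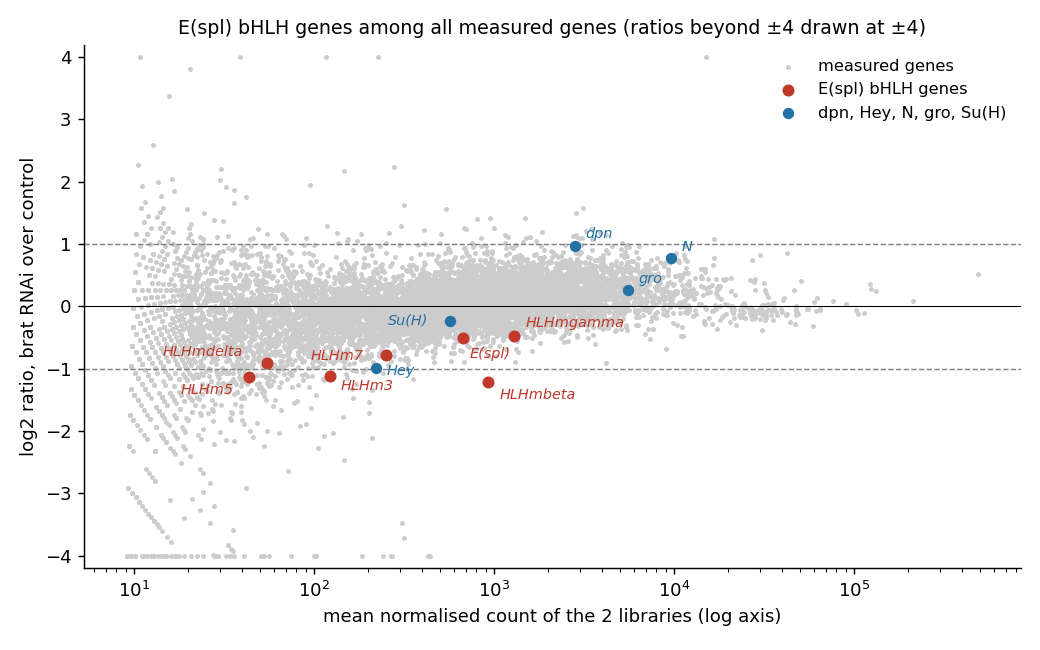
Log2 ratio of brat RNAi over control against the mean normalised count (log axis) for the 9142 measured genes in grey, the 7 E(spl) bHLH genes in red and dpn, Hey, N, gro and Su(H) in blue, with dashed lines at 2-fold. HLHmbeta, at -1.22, lies below the cloud of genes of similar level, while HLHm5 and HLHmdelta lie among many scarce genes that are also lower.

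The 7 genes share a structure that the choice by name did not use. In the BDGP6 annotation each has 1 transcript and 1 exon, none overlaps another gene, and transcripts are between 769 bases for E(spl) and 1305 bases for HLHm3. In these libraries short genes and scarce genes tended to lower ratios. The length bins that hold the members had median log2 ratios between -0.24 and -0.12, and their level bins had medians from -0.27 for HLHm5 and HLHmdelta to 0.15 for HLHmgamma. Measured single-exon genes with 1 transcript of 700 to 1400 bases, 284 in number with the members among them, had a median log2 ratio of -0.15, and 9.15% of them were at least 2-fold lower. Of the 171 such genes at an average of at least 100 normalised counts, 1.75% were at least 2-fold lower, which is 3 genes. These were HLHmbeta, HLHm3 and m4, a gene of the same cluster. No gene of this set from elsewhere was, so the share is not a background apart from the cluster.

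A corrected ratio was formed by taking away the median ratio of the genes in the same bin of transcript length, and then of level, with 10 bins each. HLHmbeta was then at -1.08 (-1.23 to -0.94) and alone remained past 2-fold among the members, against 2.46% of the genes with a known length. HLHm3 was at -0.81 (-1.22 to -0.40), HLHm5 at -0.71 (-1.43 to -0.02) and HLHm7 at -0.50 (-0.77 to -0.23). HLHmgamma stood at -0.37 (-0.49 to -0.26) and E(spl) at -0.30 (-0.46 to -0.14). HLHmdelta was at -0.48 (-1.10 to 0.11), so its difference was no longer detectable at this depth. After correction 6 members kept an interval below 0, as did 23.8% of genes, and 3 were at least 1.5-fold lower, as were 4.78%. The corrected median was -0.50 over the members and 0.00 over all genes. The correction would also remove a difference that short or scarce genes share.

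**Figure D3:**
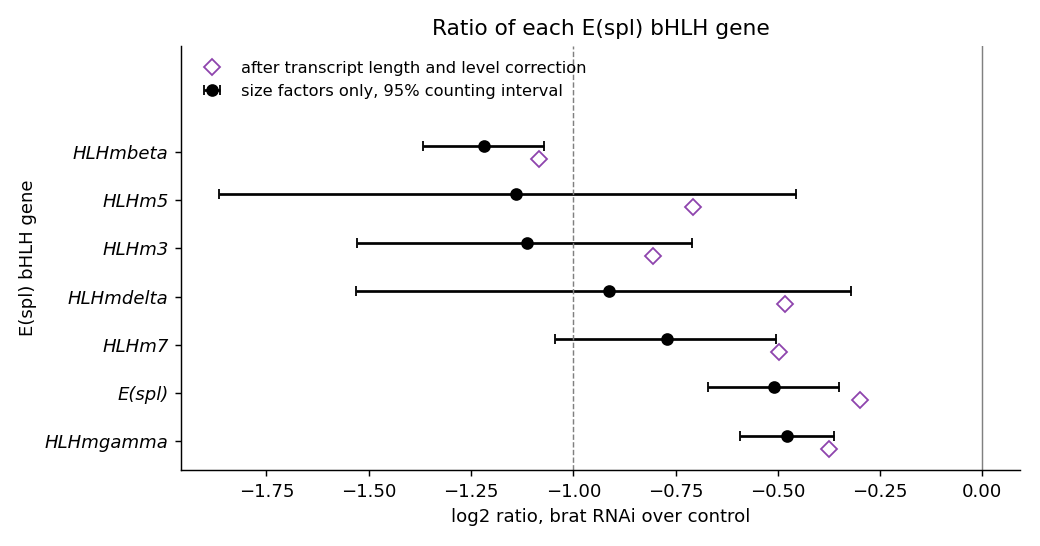
Log2 ratio of brat RNAi over control for each E(spl) bHLH gene with its 95% counting interval (black) and after correction for transcript length and level (open diamonds), with a dashed line at 2-fold lower. All 14 points lie below 0, and HLHmbeta alone stays past the dashed line after correction.

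Beyond counting error, the members did not all differ by the same factor between these 2 libraries. A ratio between 2 members within a library needs no scaling, and the change of that ratio between libraries was taken for all 21 pairs. For 6 pairs the counting interval of the change excluded 0. How many pairs of other genes do so was not computed. Of single measured genes, 24.3% had a ratio interval below 0 and 30.7% above it. The 6 pairs reuse the same few members, so they are not 6 separate results. HLHmbeta was lower relative to HLHmgamma in the brat RNAi library, at a log2 difference of -0.74 (-0.93 to -0.55). The same difference was -0.71 against E(spl) (-0.93 to -0.49) and -0.45 against HLHm7 (-0.76 to -0.14). HLHm3 was also lower relative to HLHmgamma, at -0.63 (-1.07 to -0.21), and to E(spl), at -0.60 (-1.05 to -0.17). The sixth pair was HLHm7 against HLHmgamma, at -0.29, with an interval whose upper end was just under 0 (-0.59 to -0.0010). After the correction for length and level the other 5 pairs still excluded 0 and this one, at -0.12 (-0.42 to 0.17), did not. HLHmgamma and E(spl) kept nearly the same proportion to each other, with a log2 difference of -0.03 for E(spl) over HLHmgamma (-0.23 to 0.17). None of the pairs with HLHm5 or HLHmdelta could be resolved at this depth, and the interval of HLHm5 against HLHmdelta ran from -1.18 to 0.71.

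The make-up of the family's message pool differed accordingly. HLHmgamma made 42.5% of the summed TPM of the 7 genes in the brat RNAi library and 36.0% in the control library. HLHmbeta made 20.4% in the brat RNAi library and 28.9% in the control library. E(spl) made 25.7% in the brat RNAi library and 22.3% in the control library. Counted in read pairs, the share of HLHmbeta was 22.1% in the brat RNAi library (exact binomial interval 20.4 to 23.9) and 30.9% in the control library (29.5 to 32.2).

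**Figure D4:**
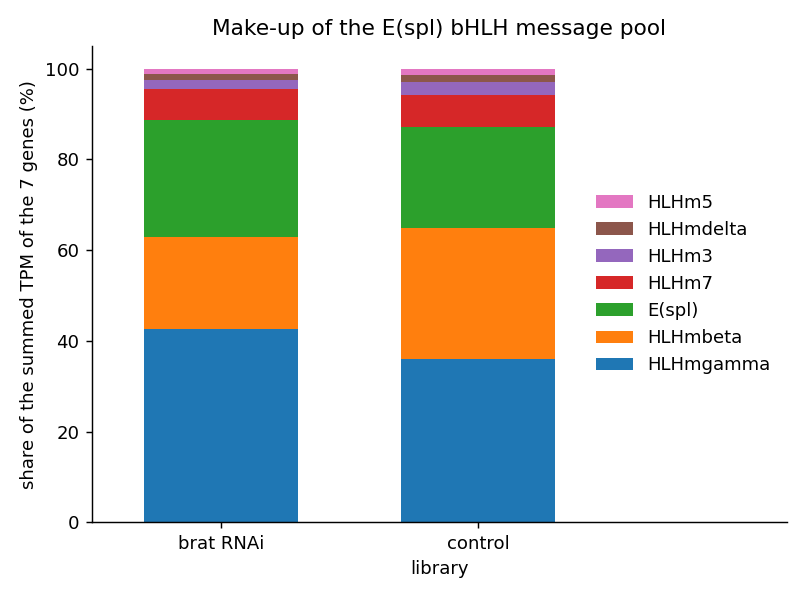
Share of each E(spl) bHLH gene in the summed TPM of the 7 genes, as a percentage, in the brat RNAi library (left bar) and the control library (right bar). HLHmbeta has 20.4% in the brat RNAi library and 28.9% in the control library, and HLHmgamma 42.5% and 36.0% in the same order.

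Of the genes that lie between the members in the complex, m4 was more than 2-fold lower, and malpha, m2 and m6 differed less. The complex runs from HLHmdelta to gro, and besides the bHLH genes it holds the Bearded family genes malpha, m2, m4 and m6, which encode small inhibitors of the Notch ligand regulator Neuralized. The gene m4, between HLHm3 and HLHm5, had 109 counts in the brat RNAi library and 332 in the control library, a log2 ratio of -1.35 (-1.67 to -1.03), and it was at -1.01 (-1.34 to -0.69) after the correction for length and level. The ratios of malpha, m2 and m6 were between -0.58 and -0.34 with intervals below 0. After correction malpha was at -0.24 (-0.53 to 0.04), m2 at -0.06 (-0.38 to 0.25) and m6 at -0.22 (-0.71 to 0.26), so a difference of these 3 genes was no longer detectable at this depth. The gene m1, a protease inhibitor gene of the complex, had 2 counts in the brat RNAi library and 6 in the control library and was not measured. Nor were the 2 lncRNA genes that the annotation places in the complex and the count tables hold, which had 7 counts or fewer in either library. Of the 3 measured Bearded family genes outside the complex, Ocho was at -1.24 (-1.60 to -0.90) and Brd at -1.19 (-1.95 to -0.48). The remaining gene, Tom, was at -0.81 (-1.13 to -0.49) and, after correction, at -0.53 (-0.86 to -0.22). Ocho was at -0.97 (-1.33 to -0.62) after correction, and the corrected interval of Brd, at -0.70 (-1.46 to 0.01), included 0.

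At the end of the complex next to E(spl), the corepressor gene gro, whose product the bHLH proteins recruit, was not lower. It had 5540 counts in the brat RNAi library and 5561 in the control library, a log2 ratio of 0.26 (0.20 to 0.31) which became 0.00 once corrected. At the other end, beside HLHmdelta, CG43116 had 4 counts in the brat RNAi library and 16 in the control library (-1.74, -3.78 to -0.11), and its corrected interval included 0 (-1.20, -3.24 to 0.43). Relative to gro within the same library, all 7 members were lower in the brat RNAi library, with log2 differences from -1.48 for HLHmbeta to -0.73 for HLHmgamma. The transcripts of gro are longer and more abundant than those of the members, and with both genes corrected for length and level the differences were smaller, from -1.09 for HLHmbeta to -0.38 for HLHmgamma and -0.30 for E(spl). The corrected interval excluded 0 for 6 of the 7 members and included it for HLHmdelta, at -0.48 (-1.10 to 0.11).

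**Figure D5:**
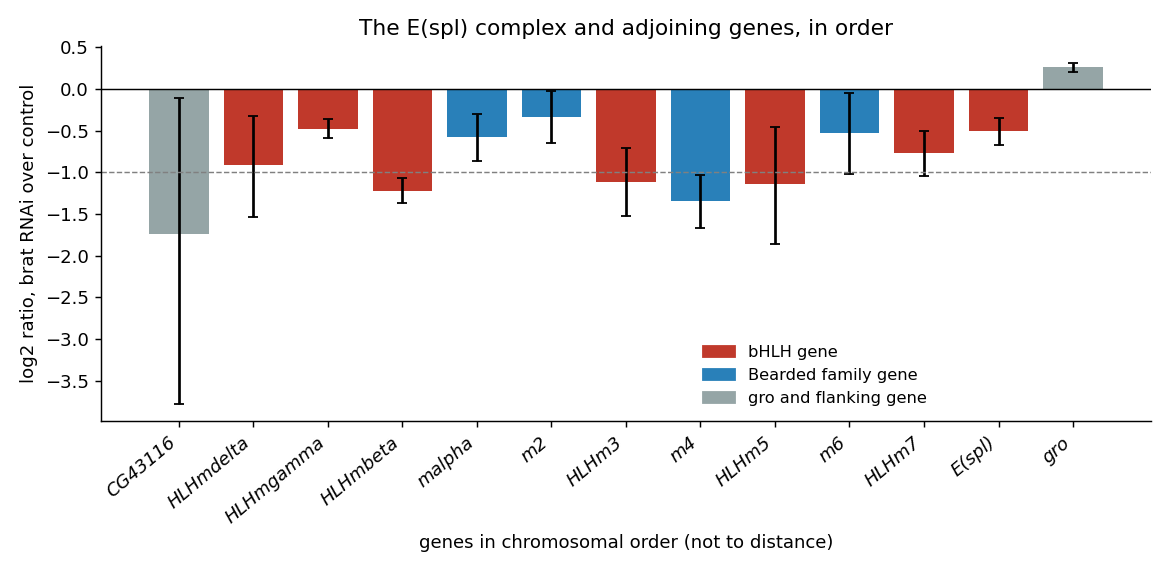
Log2 ratio of brat RNAi over control with 95% counting intervals for the measured genes of the E(spl) complex in chromosomal order, spaced evenly, with bHLH genes in red, Bearded family genes in blue and gro and the flanking gene CG43116 in grey; m1 and 2 lncRNA genes are left out for low counts. Without correction for length and level the 11 bHLH and Bearded family genes lie below 0 and gro lies above it.

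Other repressors of the Hairy and Hey class did not move as one with the members. Deadpan (dpn) had 3416 counts in the brat RNAi library and 2081 in the control library, a log2 ratio of 0.98 (0.90 to 1.06). The level of HLHmgamma was 0.65 times that of dpn in the brat RNAi library and 1.78 times that of dpn in the control library, both per length. The summed TPM of the 7 members was 1.53 times that of dpn in the brat RNAi library and 4.95 times in the control library. Hey, a Notch target of newborn neurons, was lower, with 135 counts in the brat RNAi library and 321 in the control library, a log2 ratio of -0.99 (-1.29 to -0.69). The gene cwo, a repressor known from the circadian clock, was at 0.67 (0.47 to 0.88). Hairy (h) was at -0.02 (-0.35 to 0.31). Of the 4 measured genes of this list none was 2-fold apart, and under the 3 other scalings Hey passed 2-fold lower. After correction for length and level Hey was at -0.80 (-1.10 to -0.50), dpn at 0.90, cwo at 0.48 and h at 0.09.

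Genes of the Notch pathway that act upstream of the members showed no common direction once length and level were corrected for. Of the 19 measured genes for the receptor, its ligands and core components, none was 2-fold apart, 4 had an interval below 0 and 11 above it. Among all measured genes 24.3% had an interval below 0 and 30.7% above. The median of the list was 0.26, and -0.06 after correction for length and level. After correction 11 of the 19 genes were below 0, and 6 had an interval below 0 and 6 above it. The receptor gene N had 11065 counts in the brat RNAi library and 7760 in the control library, a log2 ratio of 0.77 (0.73 to 0.82) and 0.33 after correction. The ligand gene Dl had 2135 counts in the brat RNAi library and 2074 in the control library, at 0.30 (0.22 to 0.39) and 0.00 after correction. Su(H), which encodes the factor that carries Notch to these genes, had 478 counts in the brat RNAi library and 672 in the control library, at -0.23 (-0.40 to -0.06) and -0.31 after correction. The acetyltransferase gene nej was at 0.61 (0.56 to 0.66) and 0.16 after correction. These are mRNA levels and do not measure Notch activity.

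Measured genes for partners and targets of the E(spl) proteins stayed within 2-fold, apart from Atx-1 after correction. Of 6 measured genes for corepressors, kinases and other proteins that act on them, 5 had an interval above 0 and 1 below it. After correction these counts were 4 and 1. Among all measured genes 30.7% had an interval above 0 and 24.3% below it. The median of the list was 0.27, and 0.14 after correction. CtBP, another corepressor gene, was at 0.28 (0.24 to 0.33), and Hsp83, for a chaperone, at 0.37 (0.35 to 0.38). Atx-1, for a protein of the ataxin family, had 35 counts in the brat RNAi library and 23 in the control library and was at 0.87 (0.07 to 1.69) and, after correction, at 1.30 (0.50 to 2.12). CkIIalpha, for the catalytic subunit of the kinase that phosphorylates m8, was at -0.26 (-0.37 to -0.15). Of the proneural and partner genes 6 of 10 were measured, with a median of 0.21 and of 0.14 after correction, and the proneural genes ac and sc had 9 counts or fewer in either library. The proneural relative ase was at -0.27 (-0.38 to -0.17). The E protein gene da was at 0.39 (0.31 to 0.48) and the neurogenin relative tap at 0.18 (0.08 to 0.27).

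Markers of other cells were read beside the members. Among all measured genes 4.48% were at least 2-fold lower and 1.15% at least 2-fold higher. After correction 2.46% of those with a known length were at least 2-fold lower. Of 8 muscle genes, 7 were at least 2-fold lower for brat RNAi and 4 after correction, with a summed level of 11.3 TPM in the brat RNAi library and 27.7 TPM in the control library. All muscle genes but Act57B averaged under 100 normalised counts, where 15.6% of measured genes were at least 2-fold lower. The optic lobe genes bsh and tup were 2 of 10 listed genes at least 2-fold lower, while the list summed to 389 TPM in the brat RNAi library and 350.1 TPM in the control library. Genes listed for fat body summed to 2.52 TPM in the brat RNAi library and 60.3 TPM in the control library. Nearly all of the control sum came from the yolk protein gene Yp1, which is not particular to fat body. Of the 4 measured genes of that list 3 were at least 2-fold lower and 1 at least 2-fold higher. On no list, the yolk protein genes Yp2 and Yp3 were at -7.2 and -4.2, and the yolk receptor gene yl at -4.0. No set of ovary markers was listed, so the tissue behind these values was not tested. Hemocyte genes summed to 135.1 TPM in the brat RNAi library and 119 TPM in the control library, with 1 of 7 at least 2-fold lower before correction and 0 after it. Eye disc genes summed to 99.7 TPM in the brat RNAi library and 63.2 TPM in the control library, with 1 of 7 measured genes at least 2-fold higher. Glial genes summed to 499 TPM in the brat RNAi library and 484 TPM in the control library, and neuronal genes to 176 TPM and 193 TPM in the same order, with none 2-fold apart in either list. The 8 neuroblast genes summed to 2438 TPM in the brat RNAi library and 1836 TPM in the control library, with grh at least 2-fold higher before correction and not after it. The 8 genes of type II neuroblasts and intermediate progenitors summed to 887 TPM in the brat RNAi library and 768 TPM in the control library, with none 2-fold apart, and no marker of any list was at 0 in either library. The part of these cells in the values of the members was not tested.

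Relative to the neuroblast genes dpn and mira within each library, all 7 members had lower ratios with brat RNAi. The log2 differences lay between -2.20 for HLHmbeta and -1.45 for HLHmgamma against dpn, and between -1.66 for HLHmbeta and -0.92 for HLHmgamma against mira, a carrier of fate determinants. No scaling between libraries enters these differences, but the trends with length and level do. With both genes corrected, they lay between -1.99 for HLHmbeta and -1.20 for E(spl) against dpn, and between -1.27 for HLHmbeta and -0.48 for E(spl) against mira. HLHmgamma was then at -1.28 against dpn and -0.56 against mira. The counting interval excluded 0 in each of these 14 comparisons, with and without correction. Both dpn and mira were themselves higher for brat RNAi, at 0.98 and 0.44. A gene with no difference between the libraries would therefore also be lower relative to them. How many other genes have such intervals was not computed. Of the 8 listed neuroblast genes, 7 had an interval above 0, and ase, at -0.27, had one below it. Of all measured genes, 30.7% had an interval above 0 and 24.3% below it. After correction 6 of the 8 had an interval above 0 and 2 below it, ase at -0.40 and nab at -0.14. Of all genes with a known length, 23.8% had a corrected interval below 0. Ratios to neuroblast genes other than dpn and mira were not formed.

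The measured genes whose ratio lay nearest to the members' median of -0.91, among those averaging at least 100 normalised counts, were CG12253, CG5022, CG9331, mthl6 and the insulin-like peptide gene Ilp5. Their log2 ratios lay between -0.92 for Ilp5 and -0.90 for mthl6. With 2 libraries, a likeness of ratio is a description of 1 number per gene. In the authors' deposited table the adjusted p was 0.0770 for HLHmbeta and 1 for each of the other 6 members, and that value rests on 1 library against 1.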

How the data were processed

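For each library the authors deposited raw read pair counts by gene. Their comparison table holds normalised counts (a non-negative signal), the log2 fold of control over brat RNAi, and adjusted p-values, per the file headers. The submitters' processing notes name DESeq 1.8.3, HTSeq, TopHat 1.4.1 and BWA 0.6.1, without their roles. The identifiers of the comparison table are of FlyBase release 5.44, per the file headers, and all 12401 of them are among the 14284 of the count tables, whose own release is not given in the sources used here. The strand setting of the counting is not given in the sources used here.

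The 5 categories of read pairs outside genes, 27.2% of the brat RNAi table and 22.7% of the control table, stayed out of all sums. Counts were divided by median-of-ratios size factors, 0.913 for brat RNAi and 1.09 for the control, which gave all 10987 finite log2 values of the deposited table within 1e-06 with the sign turned round. Log2 ratios are brat RNAi over control with 95% exact (Clopper-Pearson) counting intervals, and differences between 2 genes have conditional exact intervals. Calls of 2-fold required a log2 ratio of 1 or more in size and an interval without 0. TPM used median transcript lengths of the BDGP6 annotation, found for 97.1% of measured genes. For 202 genes, measured or not, the length was matched by symbol. That build differs from the release named for the identifiers, so no coordinates are given. Read pairs are not independent molecules.

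The members and lists were chosen with earlier results of these data known. All members were named. From each gene list, genes past 2-fold or otherwise the 2 most abundant were named, with gro, dpn, Hey, N, Dl, Su(H), ase and brat always, and the 5 genes nearest in ratio. HLHmbeta's own level as a limit, the single-exon genes, the ratios between genes, h, CG43116, Atx-1, the members of the complex other than m4, the corrected values of ratios between genes and of list counts, CkIIalpha, ac, sc, and the marker genes named singly were chosen after values were seen. So were Tom, Hsromega, Yp2, Yp3, yl and the corrected values of the Hairy and Hey class genes. Of 125 list symbols, 121 were matched. The interval computation was checked on simulated counts. Scalings were compared with edgeR 4.0.16 in R 4.3.3. Other computations used Python 3.11.15 with scipy 1.17.1.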

Additional observations from a re-analysis of the deposited data

Results flagged for a closer look

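Read pairs that the counting placed in no annotated feature made 26.6% of the brat RNAi table and 22.0% of the control table. They are outside every comparison above and are given here because their share exceeded that of the control. One library of each kind gives no measure of how much this share varies, and its part in the ratios of the E(spl) bHLH genes was not tested.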

How the results depend on the processing

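All 7 members stayed below 0 under every scaling and correction tried: total counts, edgeR's TMM factors, the upper quartile, length bins, and length and level bins. Total counts moved every log2 ratio by -0.14 and the upper quartile by -0.11, which put the summed members at -0.88 and -0.85 and, for total counts, HLHmgamma at -0.62. With length bins alone HLHmgamma was at -0.30, HLHmbeta at -1.04, E(spl) at -0.27 and the summed members at -0.55. With length and level bins HLHm7 was at -0.50, E(spl) at -0.30 and the summed members at -0.58. The number of members at least 2-fold lower was 1 under both corrections, 3 or 4 under the scalings, and 5 at a threshold of 1.5-fold. The number of all genes at least 2-fold lower was 218 after length and level correction, with 185 higher, and 99 at a minimum summed count of 100, against 410. The order of the members by TPM was the same with the longest transcripts, since each member has 1. No paired analysis was possible because each group is 1 library, and for the same reason no library could be left out. HLHm5 and HLHmdelta rest on the fewest counts, at most 79 in a library, and have the widest intervals.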
